A study of Mus musculus with 24 samples.

Results

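The 36 genes described here code for the heat shock chaperones, their partner proteins and transcription factors, and the cold-induced RNA-binding proteins of the mouse hippocampus. They were taken by gene symbol from the 23787 genes named by the probes of the array. In all, 66 of the 34566 named probes match them, 19 of the genes by 1 probe and 17 by several, and each gene is represented by its brightest probe. The group was drawn up as cytosolic, but *Hspa9*, *Trap1*, *Hspd1* and *Hspe1* work in mitochondria and *Hspa13* is a microsomal protein. *Hspa1a* and *Hspa1b* are nearly identical neighbouring copies, so that a probe of either may bind the transcript of the other, which was not tested.

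Male Swiss-Webster mice, recorded as 12 weeks of age and housed singly for some weeks before treatment, drank corticosterone at 100 µg/ml, dissolved with hydroxypropyl-β-cyclodextrin, through the 12 h of the dark phase. Control animals drank water with the cyclodextrin alone. Whole hippocampi were taken at the first, the fifth and the ninth hour of the resting period, from 8 control and 8 corticosterone-treated animals at each hour. Each of the 24 arrays carried RNA of 1 control animal in Cy3 and of 1 corticosterone-treated animal in Cy5, without pooling. The dyes were never exchanged, so a difference between treatments at an hour cannot be told apart from a probe's dye bias, which cancels in comparisons between hours and in the change of the corticosterone effect. In whole tissue, fewer cells of a type and less RNA per cell cannot be told apart. The groups hold males only, and each animal was measured at a single hour. In the paper, each corticosterone-treated group had its own control group of brothers. The sample records name no litter, so no test takes litter into account. Apart from the link between animals on the same array, all tests treat animals as independent.

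As background, heat shock proteins bind unfolded proteins and help them to fold, to reassemble or to be degraded. Hsp70 chaperones work in cycles started by J-domain proteins and reset by exchange factors, and Hsp90 takes over clients such as the steroid receptors, among them the glucocorticoid receptor. Heat shock factor 1 switches on the inducible chaperone genes when temperature or unfolded protein rises, whereas *Cirbp* and *Rbm3* are expressed more strongly when temperature falls and follow the daily rhythm of body temperature in several tissues.

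All 36 brightest probes lay well above background on all 24 arrays in both dyes, and none of their spots was saturated. On each array, between 60.8 and 67.2% of spots in Cy3 and between 64 and 73.5% in Cy5 were well above background. The dimmest members were the small heat shock genes *Hspb3*, with a mean signal intensity of 61.3, and *Hspb8*, with 157. On the fifth-hour array of replicate 7, on slide 3, 1683 of 31852 probes with an intensity of 50 or more lay over 1 log2 unit below the other arrays of the hour in both dyes, against at most 180 (median 14) on the other arrays. The corticosterone-treated animal of the first-hour array of replicate 8, also on slide 3, stood apart from its group for 5 members. Both arrays were kept, and member calls that change without either are given below with their values.

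The promoters of members are shown because the inducible chaperones are known for heat shock elements near the start of the gene. RefSeq promoters (GRCm38.p6, from 250 bases before to 50 after the start) were matched for 27 of the 36 members, 40 promoters in all. *Hspa13*, *Hspa9*, *Cryab*, *Hspa8*, *Hsf1*, *Hsp90aa1*, *St13*, *Rbm3* and *Hsp90ab1* had no entry. The searched motifs were GAANNTTC and TTCNNGAA, which read the same on both strands and may overlap each other. At least 1 match stood in 16 of the 40 promoters (40%), of 14 members, against 15.1% of all 32851 promoters. *Chordc1* held 5 matches, *Hsph1* held 3, as did the overlapping promoters of the neighbours *Hspd1* and *Hspe1*, and 0.256% of all promoters held 3 or more. Shown 5′ to 3′ with matches in capitals are the inducible chaperones *Hspa1b* (chr17:34959189-34959488, minus strand, 1 match starting at -104 from the gene's start) and *Hsph1* (chr5:149636266-149636565, minus strand, 3 matches), and, without a match, the J-domain gene *Dnajb1* (chr8:83607925-83608224, plus strand) and the cold-induced *Cirbp* (chr10:80167589-80167888, plus strand). A match is a description of letters and not a site of binding.
Hspa1b: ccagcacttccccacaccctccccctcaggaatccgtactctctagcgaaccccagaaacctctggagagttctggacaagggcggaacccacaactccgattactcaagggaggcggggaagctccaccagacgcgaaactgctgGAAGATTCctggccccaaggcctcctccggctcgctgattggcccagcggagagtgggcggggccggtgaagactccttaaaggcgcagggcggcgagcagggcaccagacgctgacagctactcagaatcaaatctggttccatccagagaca
Hsph1: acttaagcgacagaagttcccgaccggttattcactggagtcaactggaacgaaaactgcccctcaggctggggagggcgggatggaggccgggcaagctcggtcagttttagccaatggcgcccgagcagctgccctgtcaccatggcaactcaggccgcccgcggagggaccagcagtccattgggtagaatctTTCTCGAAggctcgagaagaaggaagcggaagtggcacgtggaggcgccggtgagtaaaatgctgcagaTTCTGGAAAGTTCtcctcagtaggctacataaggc
Dnajb1: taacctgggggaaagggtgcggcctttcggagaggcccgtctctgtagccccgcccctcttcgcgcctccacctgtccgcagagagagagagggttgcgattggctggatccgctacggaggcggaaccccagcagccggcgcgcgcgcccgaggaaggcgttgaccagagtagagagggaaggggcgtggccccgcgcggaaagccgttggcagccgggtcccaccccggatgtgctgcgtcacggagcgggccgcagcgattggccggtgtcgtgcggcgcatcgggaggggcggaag
Cirbp: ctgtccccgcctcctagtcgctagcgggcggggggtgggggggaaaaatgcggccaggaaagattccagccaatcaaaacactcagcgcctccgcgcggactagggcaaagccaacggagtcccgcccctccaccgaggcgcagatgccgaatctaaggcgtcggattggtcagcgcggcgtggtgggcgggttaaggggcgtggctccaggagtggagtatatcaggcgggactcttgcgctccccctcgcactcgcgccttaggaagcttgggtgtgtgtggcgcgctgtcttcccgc

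By the ninth hour of the resting period, the cold-induced genes rose and several chaperone genes fell, in control and in corticosterone-treated animals. In control animals *Cirbp* and *Rbm3* rose, and *St13*, *Dnaja1* and *Hspb1* fell. In corticosterone-treated animals *Cirbp* and *Rbm3* rose, and *St13*, *Dnaja1*, *Hspa1a*, *Dnajb1* and *Dnajb5* fell. In control animals 2 of 36 members (5.56%) were higher and 3 (8.33%) lower at an adjusted p under 0.05 in limma, against 0.238% of all 56605 probes higher and 0.277% lower. The brightest probes of named genes were called higher in 0.362% and lower in 0.441%. In corticosterone-treated animals 2 members (5.56%) were higher and 5 (13.9%) lower, against 1.99% of all probes higher and 1.94% lower, and 3.25 and 2.82% of the brightest probes. The median log2 fold change of the members was -0.07 in control and -0.08 in corticosterone-treated animals, and -0.00 over all probes in both.

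**Figure D1:**
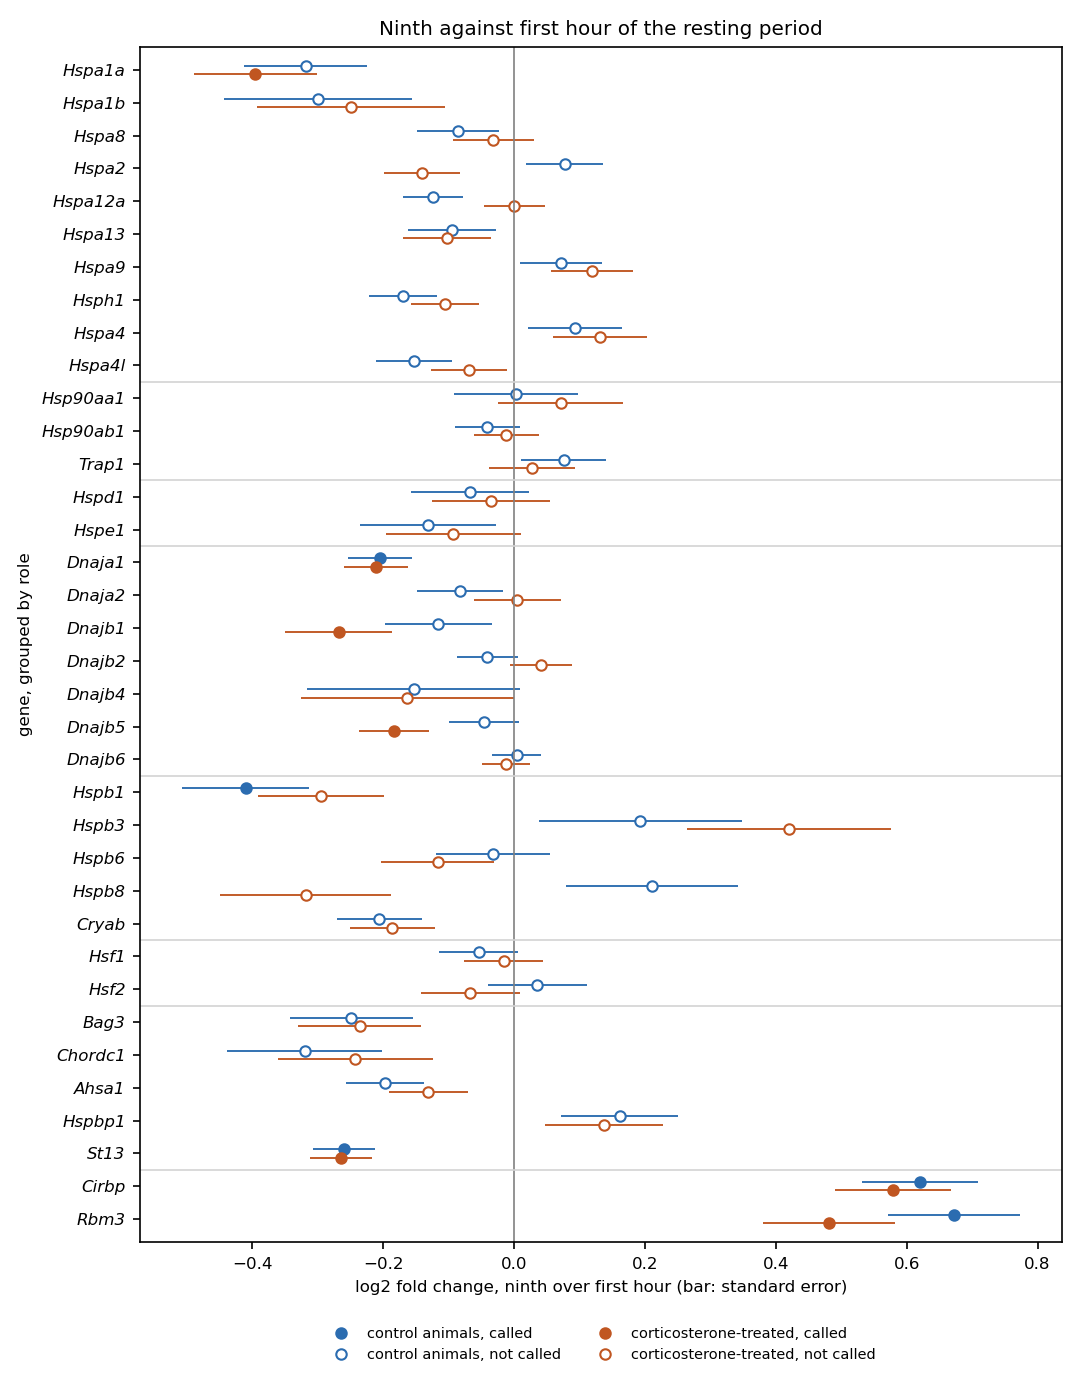
log2 fold change of the ninth over the first hour for the 36 members, grouped by role, in control (blue) and corticosterone-treated animals (orange), with bars of 1 standard error and filled points at an adjusted p under 0.05. *Cirbp* and *Rbm3* stand to the right of all other called members, which lie below 0.

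*Cirbp*, whose product binds RNA in the cold and stabilizes transcripts, rose through the resting period. In control animals its signal intensity was between 3880 and 6360 (median 5470) at the first hour, between 6170 and 7950 (median 6570) at the fifth and between 7380 and 8720 (median 8380) at the ninth. With corticosterone it was between 4300 and 6250 (median 5240), between 4660 and 7040 (median 6070) and between 6970 and 9030 (median 8080) at the same hours. In both treatments each of the 8 ninth-hour animals lay above every first-hour animal, while the fifth-hour animals overlapped those of the first hour. The ninth over first hour log2 fold change was 0.62 ± 0.09 in control animals (53.7% higher, adjusted p = 2.89e-05) and 0.58 ± 0.09 in corticosterone-treated animals (49.3% higher, adjusted p = 6.86e-06). The increase was 0.81, 0.52 and 0.62 within slides 1, 2 and 3 in control animals and 0.42, 0.59 and 0.73 in corticosterone-treated animals. With slide as a block it was 0.63 and 0.59. Without slide 1 the control comparison no longer passed (adjusted p = 0.0707, range over 17 alternatives 2.65e-06 to 0.0707).

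*Rbm3*, the close relative of *Cirbp* that promotes translation in the cold, rose with it. In control animals its signal intensity ran from 4520 to 6850 (median 5620) at the first hour, from 5780 to 8620 (median 6570) at the fifth and from 7660 to 9930 (median 9110) at the ninth. In corticosterone-treated animals it ran from 4470 to 6470 (median 5480), from 4620 to 7500 (median 5870) and from 6390 to 9610 (median 7310). All 8 ninth-hour control animals lay above every first-hour control animal, and 7 of 8 did so among corticosterone-treated animals. Its log2 fold change was 0.67 ± 0.10 in control animals (59.4% higher, adjusted p = 6.87e-05) and 0.48 ± 0.10 in corticosterone-treated animals (39.5% higher, adjusted p = 0.0011). The change of the corticosterone effect between these hours was -0.19 ± 0.12 (adjusted p = 0.831), so a difference between the treatments in this rise was not shown. Within slides 1, 2 and 3 the increase was 0.83, 0.56 and 0.58 in control and 0.35, 0.51 and 0.42 in corticosterone-treated animals, and with slide as a block 0.65 and 0.46. Without slide 1 the control comparison no longer passed (adjusted p = 0.118, range over 17 alternatives 1.15e-05 to 0.118).

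**Figure D2:**
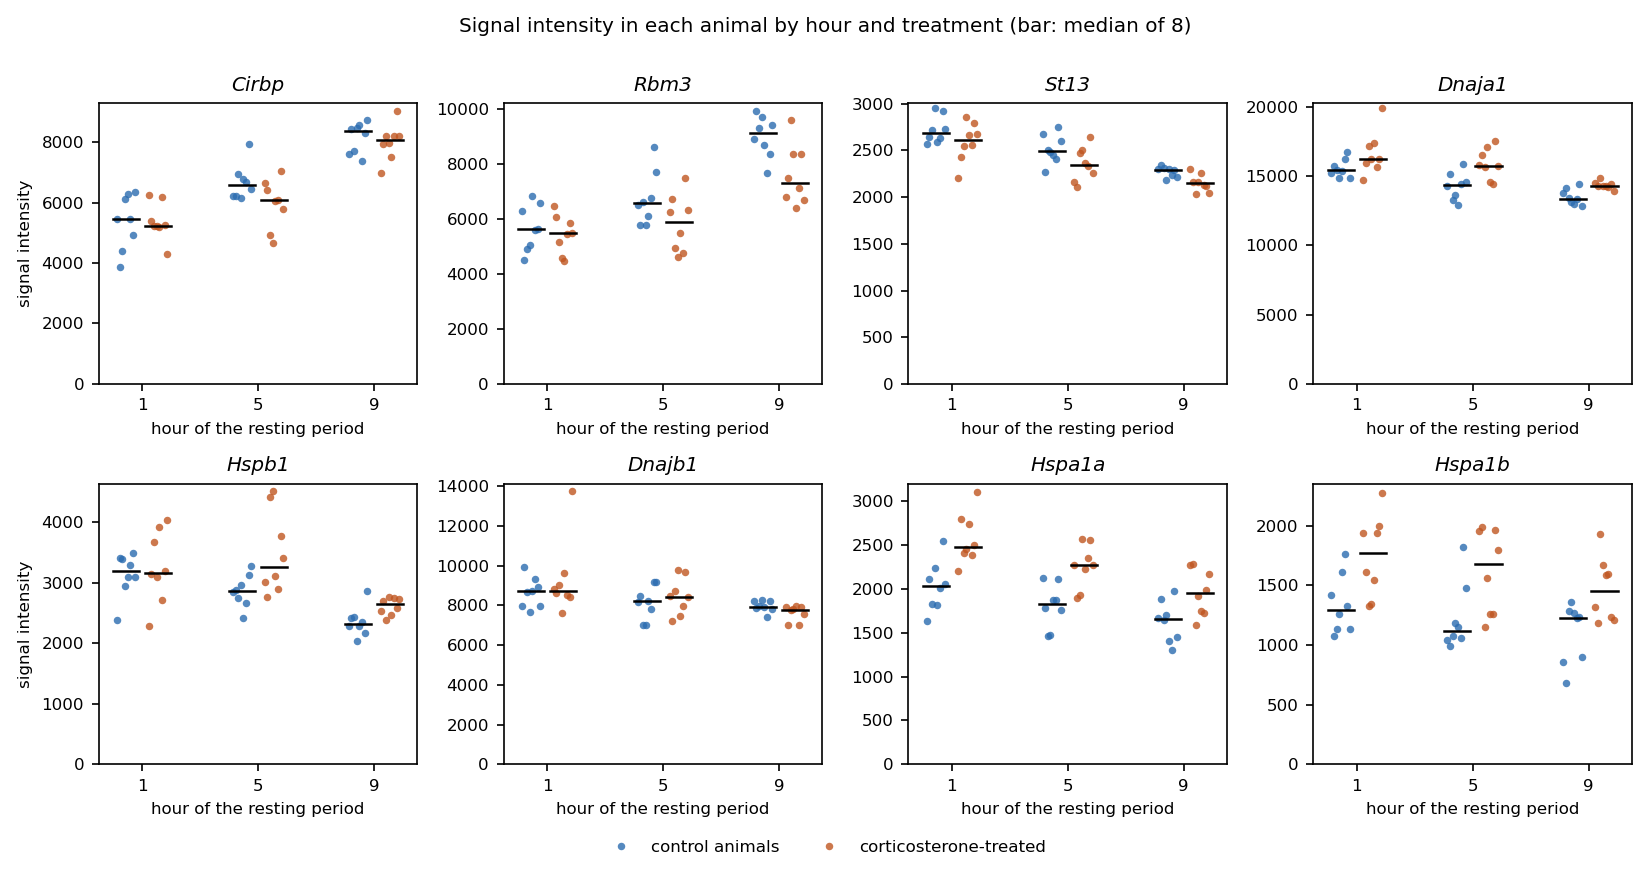
Signal intensity in each of 8 animals per treatment at the first, the fifth and the ninth hour for 8 members, with bars at the median. *Cirbp* is at or above 6970 in the ninth-hour animals and at or below 6360 in the first-hour animals of both treatments. The ninth-hour medians of *St13*, *Dnaja1* and *Hspb1* lie below those of the first hour. In control animals all ninth-hour values of *St13* and *Dnaja1* lie below all first-hour values, while those of *Hspb1* overlap.

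Among the 10 Hsp70 and Hsp110 genes, *Hspa1a* had fallen by the ninth hour in corticosterone-treated animals. In control animals the signal intensity of this stress-inducible Hsp70 gene was between 1630 and 2550 (median 2030) at the first hour, between 1460 and 2120 (median 1820) at the fifth and between 1300 and 1970 (median 1650) at the ninth. After corticosterone it was between 2200 and 3110 (median 2470), between 1900 and 2570 (median 2270) and between 1590 and 2280 (median 1950), and 6 of the 8 ninth-hour animals lay below every first-hour animal. *Hspa1a* had a log2 fold change of -0.40 ± 0.09 in corticosterone-treated animals (adjusted p = 0.00448) and -0.32 ± 0.09 in control animals (adjusted p = 0.104), where all 8 ninth-hour animals lay below the first-hour median. The difference between these values was -0.08 ± 0.11 (adjusted p = 1) and was not shown. The fall in corticosterone-treated animals was -0.31, -0.54 and -0.35 within the slides and -0.40 with slide as a block, and it no longer passed without slide 2 or slide 3 (adjusted p up to 0.0735 over 16 alternatives, the smallest 0.00258).

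The neighbouring copy *Hspa1b* did not pass the test between hours. Its signal intensity in control animals was between 1070 and 1760 (median 1300) at the first, between 996 and 1820 (median 1110) at the fifth and between 683 and 1360 (median 1230) at the ninth hour. Its ninth over first hour log2 fold change was -0.30 ± 0.14 in control animals (adjusted p = 0.467) and -0.25 ± 0.14 in corticosterone-treated animals (adjusted p = 0.43), with wide overlap of the hours. *Hsph1*, an Hsp110 exchange factor and a heat-inducible gene, had values of -0.17 ± 0.05 (adjusted p = 0.104) and -0.11 ± 0.05 (adjusted p = 0.286). The signal intensity of *Hsph1* in control animals was between 14100 and 17500 (median 16300), between 14700 and 18100 (median 16400) and between 13500 and 15100 (median 14500) at the 3 hours. Corticosterone-treated animals read between 14000 and 16600 (median 16000), between 14800 and 18800 (median 16700) and between 12800 and 15700 (median 14800). All 8 ninth-hour animals of each treatment lay below the first-hour median of *Hsph1*, though 3 of 8 lay below every first-hour animal.

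*Hspa8*, the constitutive Hsp70 gene, differed little between hours. Its signal intensity in control animals was between 34200 and 42200 (median 38600), between 32000 and 48900 (median 39400) and between 33700 and 39100 (median 35900) at the 3 hours, and in corticosterone-treated animals between 34100 and 41200 (median 36900), between 33300 and 50400 (median 38000) and between 34200 and 39100 (median 36500). The groups overlapped over most of their range. The ninth over first hour log2 fold change was -0.09 ± 0.06 (adjusted p = 0.674) and -0.03 ± 0.06 (adjusted p = 0.896). The testis and brain Hsp70 *Hspa2*, the divergent Hsp70 *Hspa12a*, the microsomal *Hspa13*, the mitochondrial *Hspa9* and the Hsp110 relatives *Hspa4* and *Hspa4l* had values between -0.15 and 0.13 with adjusted p from 0.169 to 1.

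The Hsp90 genes and the mitochondrial chaperonin showed no called difference between the first and the ninth hour (0 of 3 and 0 of 2 in limma, and 0 of these at an unadjusted p under 0.05). The inducible Hsp90 gene *Hsp90aa1* had a signal intensity between 36100 and 53600 (median 46100) at the first, between 30300 and 55500 (median 44600) at the fifth and between 40600 and 50400 (median 45900) at the ninth hour in control animals. With corticosterone it was between 27200 and 48500 (median 40800), between 27100 and 46600 (median 41400) and between 40900 and 44800 (median 42200). Its log2 fold change was 0.00 ± 0.10 (adjusted p = 0.995) and 0.07 ± 0.10 (adjusted p = 0.824). The lowest corticosterone-treated animals of the first and the fifth hour lay far below their groups. The constitutive *Hsp90ab1*, the mitochondrial *Trap1* and the chaperonin genes *Hspd1* and *Hspe1* had values between -0.13 and 0.08.

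Of the 7 J-domain genes, which pass unfolded proteins to Hsp70, *Dnaja1* fell in both treatments, and *Dnajb1* and *Dnajb5* fell in corticosterone-treated animals. *Dnaja1* had a signal intensity between 14900 and 16700 (median 15400) at the first, between 12900 and 15900 (median 14400) at the fifth and between 12900 and 14400 (median 13400) at the ninth hour in control animals. After corticosterone it was between 14700 and 19900 (median 16200), between 14500 and 17500 (median 15800) and between 13900 and 14900 (median 14300). All 8 ninth-hour control animals and 7 of 8 corticosterone-treated animals lay below every first-hour animal of their treatment. The log2 fold change was -0.21 ± 0.05 in control animals (a change of -13.2%, adjusted p = 0.0177) and -0.21 ± 0.05 in corticosterone-treated animals (adjusted p = 0.00223). Within the slides it was -0.19, -0.21 and -0.23 in control and -0.08, -0.25 and -0.28 in corticosterone-treated animals, and -0.21 in each with slide as a block. The control comparison no longer passed without any single slide, and the other not without slide 2. The dimmer probe of *Dnaja1*, at a mean intensity of 196, gave 0.01 ± 0.09 (adjusted p = 0.982) and 0.04 ± 0.09 (adjusted p = 0.904).

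*Dnajb1*, the heat-inducible Hsp40 gene, had a signal intensity between 7650 and 9930 (median 8710), between 7010 and 9210 (median 8200) and between 7410 and 8290 (median 7930) at the 3 hours in control animals. Corticosterone-treated animals read between 7640 and 13800 (median 8710), between 7220 and 9770 (median 8450) and between 7000 and 7950 (median 7790), and the value of 13800 belongs to the first-hour array of replicate 8. Its ninth over first hour log2 fold change was -0.27 ± 0.08 in corticosterone-treated animals (adjusted p = 0.0383), with 8 of 8 ninth-hour animals below the first-hour median and 3 of 8 below every first-hour animal. Without that array it was -0.18 (adjusted p = 0.107) and no longer passed. It failed in 7 of 16 alternatives, over which adjusted p ran from 0.00955 to 0.33. In control animals the value was -0.12 ± 0.08 (adjusted p = 0.67), and the change of the corticosterone effect, -0.15 ± 0.10 (adjusted p = 0.843), did not show that the treatments differ.

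*Dnajb5*, a relative of *Dnajb1*, had a signal intensity in corticosterone-treated animals between 5570 and 6850 (median 6500), between 5560 and 6930 (median 6010) and between 4990 and 5970 (median 5610) at the 3 hours. In control animals it was between 5840 and 6710 (median 6250), between 5930 and 7960 (median 6370) and between 5850 and 6200 (median 5980). The fall in corticosterone-treated animals was -0.18 ± 0.05 (adjusted p = 0.0227), with 4 of 8 ninth-hour animals below every first-hour animal, and the control value was -0.05 ± 0.05 (adjusted p = 0.828). The change of the corticosterone effect of *Dnajb5* was -0.14 ± 0.06 (adjusted p = 0.56), and the fall failed in 6 of 17 alternatives (adjusted p from 0.00835 to 0.822). The remaining J-domain genes *Dnaja2*, *Dnajb2*, *Dnajb4* and *Dnajb6* had values between -0.16 and 0.04. Without the fifth-hour array of replicate 7, on which *Dnajb4* read 933 and 994, *Dnajb4* was called lower in corticosterone-treated animals (-0.16, adjusted p = 0.0218).

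*Hspb1*, a small heat shock protein that holds unfolded proteins and guards actin filaments, fell in control animals. Its signal intensity there was between 2380 and 3490 (median 3190) at the first, between 2420 and 3280 (median 2860) at the fifth and between 2040 and 2860 (median 2320) at the ninth hour. In corticosterone-treated animals it was between 2280 and 4030 (median 3160), between 2760 and 4510 (median 3250) and between 2390 and 2770 (median 2650). Of the ninth-hour control animals, 5 of 8 lay below every first-hour animal, whereas the corticosterone-treated groups of these hours overlapped. The ninth over first hour log2 fold change was -0.41 ± 0.10 in control animals (adjusted p = 0.0244) and -0.29 ± 0.10 in corticosterone-treated animals (adjusted p = 0.065), and the change of the corticosterone effect was 0.12 ± 0.12 (adjusted p = 0.981). *Hspb1* also passed in corticosterone-treated animals when dim probes were left out by mean intensity (adjusted p = 0.0399) or by detection (adjusted p = 0.0464). Within the slides the control value was -0.32, -0.44 and -0.40, with slide as a block -0.37, and it no longer passed without any single slide (adjusted p from 0.00738 to 0.386 over 16 alternatives). The muscle small heat shock gene *Hspb3* (0.19 and 0.42), *Hspb6* (-0.03 and -0.12), *Hspb8* (0.21 and -0.32) and the αB-crystallin gene *Cryab* (-0.21 and -0.19) did not pass in control or corticosterone-treated animals. With slide as a block *Hspb3* was called higher in corticosterone-treated animals (0.48, adjusted p = 0.0381). The change of the corticosterone effect of *Hspb8* was -0.53 ± 0.16 (adjusted p = 0.106).

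The heat shock factors did not pass between these hours. *Hsf1*, the main activator of heat shock genes, had a signal intensity between 1130 and 1340 (median 1230), between 1120 and 1590 (median 1300) and between 1070 and 1300 (median 1210) at the 3 hours in control animals. With corticosterone it was between 1220 and 1410 (median 1290), between 1310 and 1700 (median 1420) and between 1140 and 1400 (median 1320). The hours overlapped in each treatment, and the ninth over first hour log2 fold change was -0.05 ± 0.06 (adjusted p = 0.827) and -0.02 ± 0.06 (adjusted p = 0.954). *Hsf2*, its developmental relative, gave 0.04 ± 0.08 and -0.07 ± 0.08.

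Of the 5 cochaperones, *St13*, which codes for the Hsp70-interacting protein Hip, fell in both treatments. Its signal intensity in control animals was between 2570 and 2960 (median 2680) at the first, between 2260 and 2750 (median 2500) at the fifth and between 2180 and 2340 (median 2290) at the ninth hour. After corticosterone it was between 2200 and 2850 (median 2610), between 2110 and 2640 (median 2350) and between 2030 and 2300 (median 2150). All 8 ninth-hour control animals and 6 of 8 corticosterone-treated animals lay below every first-hour animal of their treatment. Its log2 fold change was -0.26 ± 0.05 in control animals (adjusted p = 0.000823) and -0.26 ± 0.05 in corticosterone-treated animals (adjusted p = 4.9e-05), within the slides -0.19, -0.28 and -0.29, and -0.10, -0.29 and -0.36, and with slide as a block -0.24 and -0.25. Without slide 3 the control comparison no longer passed (adjusted p = 0.0524, range over 16 alternatives 0.000332 to 0.0524).

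The other cochaperones were lower at the ninth hour without passing the test, apart from the exchange factor gene *Hspbp1* (0.16 and 0.14). The Hsp90 cochaperone genes *Chordc1* and *Ahsa1* had log2 fold changes of -0.32 ± 0.12 (adjusted p = 0.241) and -0.20 ± 0.06 (adjusted p = 0.105) in control animals, and the autophagy-linked *Bag3* -0.25 ± 0.09 (adjusted p = 0.271). All 8 ninth-hour control animals of *Chordc1*, between 1660 and 2030, lay below every first-hour control animal, between 2100 and 2730. *Chordc1* read 994 and 989 on the fifth-hour array of replicate 7, and without that array it was called lower in control (-0.32, adjusted p = 0.000803) and corticosterone-treated animals (-0.24, adjusted p = 0.00355). With the scanner's processed signals *Chordc1* was called lower with all arrays kept (-0.36, adjusted p = 2.99e-05, and -0.29, adjusted p = 7.99e-05). Without the first-hour array of replicate 8, *Ahsa1* was called lower in control animals (-0.21, adjusted p = 0.0382).

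Over shorter intervals fewer members passed. The shares of all probes given here are at an adjusted p under 0.05, so the unadjusted counts cannot be set against them. From the first to the fifth hour, 0 of 36 passed in control animals in limma (7 at an unadjusted p under 0.05), against 0.0053% of all probes in either direction, and 0 in corticosterone-treated animals (4 unadjusted), against 0.537%. From the fifth to the ninth hour, 0 passed in control animals (10 unadjusted), against 0.0318%. In corticosterone-treated animals 3 passed between these hours, against 0.668%: *Cirbp* rose (0.44 ± 0.09, adjusted p = 0.00438, 7 of 8 ninth-hour animals above every fifth-hour animal), *Rbm3* rose (0.39 ± 0.10, adjusted p = 0.0392, 3 of 8 above) and *Hspb1* fell (-0.39 ± 0.10, adjusted p = 0.0269, 7 of 8 below). In control animals *Cirbp* gave 0.33 ± 0.09 (adjusted p = 0.299) from the first to the fifth hour and 0.29 ± 0.09 (adjusted p = 0.378) from the fifth to the ninth, and *Rbm3* 0.25 ± 0.10 (adjusted p = 0.611) and 0.43 ± 0.10 (adjusted p = 0.12).

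At each hour, the inducible Hsp70 genes *Hspa1a* and *Hspa1b* and, by its brightest probe, the J-domain gene *Dnajb6* were higher in corticosterone-treated than in control animals. *Hspa2* was higher at the first and the fifth hour, *Dnaja1*, *Hspb1* and *Hsf1* at the fifth and *Hspa4l* at the ninth. *Dnaja2* was lower at the first and the fifth hour, *Cryab* and *Ahsa1* at the first and *Rbm3* at the ninth. At the first hour 4 of 36 members (11.1%) were higher and 3 (8.33%) lower, against 8.79% of all probes higher and 8.74% lower. At the fifth hour 7 (19.4%) were higher and 1 (2.78%) lower, against 8.64 and 9.51%, and at the ninth hour 4 (11.1%) were higher and 1 (2.78%) lower, against 6.97 and 6.93%. The brightest probes of named genes were called higher and lower in 10.2 and 10.4%, 9.89 and 10.9%, and 8.31 and 7.15% at the 3 hours, so that the members' total share stood near that of these probes at each hour. The median log2 fold change of the members was -0.01, 0.00 and -0.02.

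**Figure D3:**
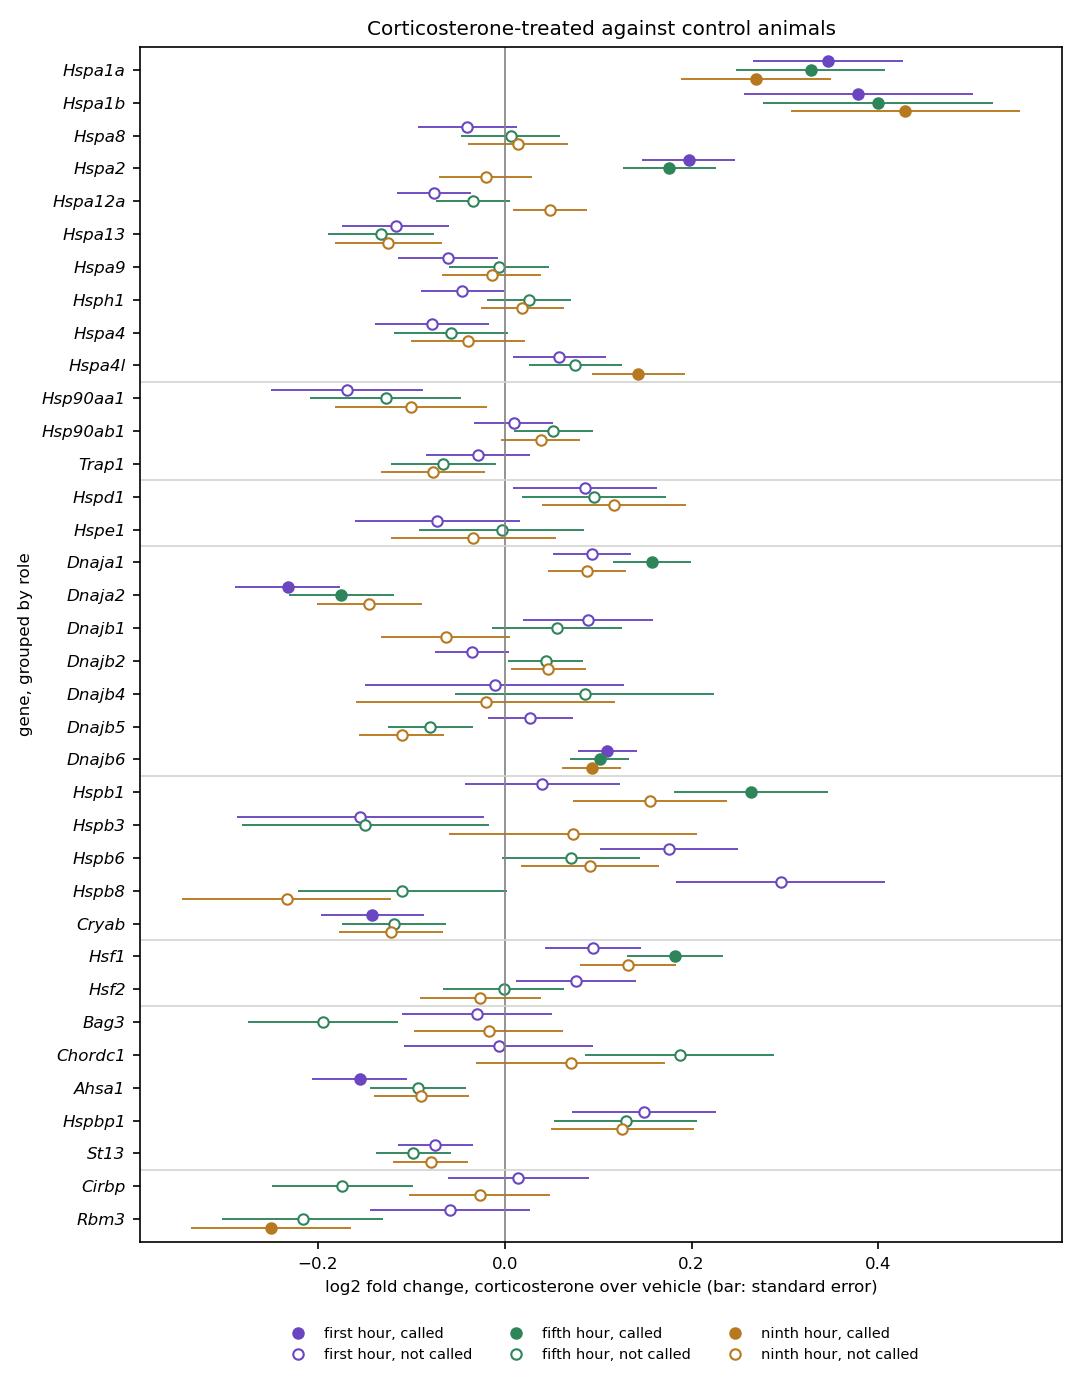
log2 fold change of corticosterone-treated over control animals for the 36 members, grouped by role, at the first, the fifth and the ninth hour, with bars of 1 standard error and filled points at an adjusted p under 0.05. *Hspa1a* and *Hspa1b* lie between 0.27 and 0.43 at each hour, above all other called members.

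*Hspa1a* was higher in the corticosterone-treated animal on 7, 8 and 7 of 8 arrays at the first, the fifth and the ninth hour. The medians of 2470, 2270 and 1950 in corticosterone-treated animals stood above those of 2030, 1820 and 1650 in control animals, and the ranges of the treatments overlapped at each hour. For corticosterone *Hspa1a* had log2 fold changes of 0.35 ± 0.08 (27.1% higher, adjusted p = 0.00107), 0.33 ± 0.08 (25.5%, adjusted p = 0.00193) and 0.27 ± 0.08 (20.5%, adjusted p = 0.0142). Within slides 1, 2 and 3 it was 0.42, 0.38 and 0.27 at the first, 0.09, 0.48 and 0.33 at the fifth and 0.21, 0.36 and 0.29 at the ninth hour. It no longer passed at the fifth hour without slide 2 (adjusted p = 0.0905, range over 17 alternatives 0.000811 to 0.0905), nor at the ninth without any single slide (adjusted p up to 0.0828).

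*Hspa1b* in corticosterone-treated animals had a signal intensity between 1330 and 2270 (median 1770) at the first, between 1150 and 1990 (median 1670) at the fifth and between 1190 and 1930 (median 1450) at the ninth hour. It was higher in the corticosterone-treated animal on 7, 8 and 8 of 8 arrays, and the ranges of the treatments overlapped. The log2 fold change was 0.38 ± 0.12 (30% higher, adjusted p = 0.0199), 0.40 ± 0.12 (31.9%, adjusted p = 0.0139) and 0.43 ± 0.12 (34.6%, adjusted p = 0.0112). Within the slides it was 0.52, 0.09 and 0.58 at the first, 0.96, 0.21 and 0.22 at the fifth and 0.58, 0.35 and 0.21 at the ninth hour. The call at the first hour was lost without slide 1, without slide 3 and without the array of replicate 8, where it was 0.29 (adjusted p = 0.0909, range over 17 alternatives 0.0065 to 0.259), and those at the fifth and the ninth hour without slide 1 (adjusted p up to 0.268 and 0.322). The change of the corticosterone effect by the ninth hour was 0.05 ± 0.17 (adjusted p = 1) for *Hspa1b*.

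*Hspa2* had a signal intensity in control animals between 5350 and 6390 (median 6170) at the first, between 5090 and 7060 (median 5880) at the fifth and between 5890 and 6710 (median 6490) at the ninth hour. With corticosterone it was between 6080 and 7480 (median 6930), between 5860 and 7460 (median 6630) and between 5640 and 6910 (median 6330). *Hspa2* was higher with corticosterone on 7 of 8 arrays at the first hour (0.20 ± 0.05, adjusted p = 0.00206) and on 8 of 8 at the fifth (0.18 ± 0.05, adjusted p = 0.00576), and gave -0.02 ± 0.05 (adjusted p = 0.821) at the ninth. The change of its corticosterone effect by the ninth hour was -0.22 ± 0.07 (adjusted p = 0.136), and without the first-hour array of replicate 8 it was -0.26 (adjusted p = 0.0405) and was called. The call of *Hspa2* at the fifth hour was lost without slide 1 (adjusted p = 0.162, range over 17 alternatives 0.00228 to 0.162). *Hspa4l* in control animals was between 5320 and 6140 (median 5700), between 4710 and 6900 (median 5510) and between 4900 and 5480 (median 5100) at the 3 hours, and in corticosterone-treated animals between 5460 and 6950 (median 5910), between 5440 and 6890 (median 5780) and between 5270 and 6160 (median 5660). It was higher with corticosterone at the ninth hour on 7 of 8 arrays (0.14 ± 0.05, adjusted p = 0.0318), a call lost in 5 of 18 alternatives, and the change of its effect since the first hour was 0.08 ± 0.07 (adjusted p = 0.937).

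*Hspa8* gave -0.04 ± 0.05 (adjusted p = 0.624), 0.01 ± 0.05 (adjusted p = 0.95) and 0.01 ± 0.05 (adjusted p = 0.889) for corticosterone at the 3 hours, and *Hsph1* -0.05 ± 0.04 (adjusted p = 0.479), 0.03 ± 0.04 (adjusted p = 0.711) and 0.02 ± 0.04 (adjusted p = 0.817). *Hspa12a*, *Hspa13*, *Hspa9* and *Hspa4* had values between -0.13 and 0.05. Without the first-hour array of replicate 8, *Hspa12a* (-0.12, adjusted p = 0.00932), *Hspa13* (-0.16, adjusted p = 0.0285), *Hspb6* (0.23, adjusted p = 0.0234) and *Hspbp1* (0.21, adjusted p = 0.0309) were also called at the first hour. With all arrays kept, *Hspa12a* (adjusted p = 0.033) and *Hspb6* (adjusted p = 0.0419) passed there with Aquantile normalization, and *Hspb6* with processed signals (adjusted p = 0.0439). *Hsp90aa1* gave -0.17 ± 0.08 (adjusted p = 0.125), -0.13 ± 0.08 (adjusted p = 0.262) and -0.10 ± 0.08 (adjusted p = 0.425). With the scanner's processed signals *Hsp90aa1* was called lower at the first (-0.19, adjusted p = 0.0249) and the fifth hour (-0.18, adjusted p = 0.0326). *Hsp90ab1*, the brightest member, gave 0.01, 0.05 and 0.04 and did not pass, but with Aquantile normalization it was called higher at each hour (0.24, 0.28 and 0.26), as it was in the authors' table of log2 ratios (0.25, 0.29 and 0.26). *Trap1* was between -0.08 and -0.03, *Hspd1* between 0.09 and 0.12 and *Hspe1* between -0.07 and -0.00. Without the fifth-hour array of replicate 7, on which *Hspd1* read 6780 and 7060, *Hspd1* was called higher at the 3 hours (0.09, adjusted p = 0.0336; 0.10, adjusted p = 0.0234; 0.12, adjusted p = 0.00476), as it was with limma on log ratios and all arrays (adjusted p = 0.0459, 0.0269 and 0.01).

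Among the J-domain genes, *Dnajb6*, which keeps aggregation-prone proteins apart, was by its brightest probe higher with corticosterone on 8 of 8 arrays at each hour. Its signal intensity was between 12200 and 13200 (median 12500), between 11400 and 14000 (median 12600) and between 12100 and 13200 (median 12700) in control animals, and between 13000 and 14700 (median 13600), between 12800 and 15000 (median 13500) and between 13000 and 13900 (median 13500) in corticosterone-treated animals. Its log2 fold change was 0.11 ± 0.03 (adjusted p = 0.0038), 0.10 ± 0.03 (adjusted p = 0.00699) and 0.09 ± 0.03 (adjusted p = 0.0173). The difference was small beside those of *Hspa1a* and *Hspa1b*, and the ranges of the treatments overlapped little at the first and the ninth hour. The dimmer *Dnajb6* probes at 1260, 802 and 109 gave negative values at each hour, and that at 3380 gave positive ones. With Aquantile normalization and in the authors' table of log2 ratios *Dnajb6* did not pass at any of the 3 hours, nor did it without slide 2, and at the ninth hour not without slide 1 or slide 3 (adjusted p up to 0.127, 0.227 and 0.313 over 18 alternatives each).

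*Dnaja2*, a J-domain partner of *Hspa8*, was lower with corticosterone. Its signal intensity in control animals was between 7100 and 8550 (median 7980), between 6670 and 9550 (median 7610) and between 6740 and 8580 (median 7350), and in corticosterone-treated animals between 6440 and 7030 (median 6830), between 6330 and 8210 (median 6730) and between 6090 and 8360 (median 6610). At the first hour every corticosterone-treated animal lay below every control animal, and the log2 fold change was -0.23 ± 0.06 (adjusted p = 0.00157). It was -0.17 ± 0.06 at the fifth hour (7 of 8 arrays, adjusted p = 0.0166) and -0.14 ± 0.06 at the ninth (adjusted p = 0.0586). Within slide 1 the value of *Dnaja2* at the fifth hour was 0.01, the first-hour call was lost without slide 3 (adjusted p = 0.0588), the fifth-hour call without slide 2 or slide 3 (adjusted p up to 0.501), and it passed at the ninth hour without the fifth-hour array of replicate 7 (-0.14, adjusted p = 0.049), with Aquantile normalization (adjusted p = 0.037) and with processed signals (adjusted p = 0.0338).

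*Dnaja1* was higher with corticosterone on 8 of 8 arrays at the fifth hour (0.16 ± 0.04, adjusted p = 0.00294) and gave 0.09 ± 0.04 at the first (adjusted p = 0.082) and 0.09 ± 0.04 at the ninth hour (adjusted p = 0.12). The fifth-hour call was lost without slide 2 (adjusted p up to 0.893 over 18 alternatives, the largest from the dimmer probe). The change of the corticosterone effect of *Dnaja1* was 0.06 ± 0.06 from the first to the fifth hour (adjusted p = 1). *Dnajb1* gave 0.09 ± 0.07 (adjusted p = 0.377), 0.06 ± 0.07 (adjusted p = 0.608) and -0.06 ± 0.07 (adjusted p = 0.577). *Dnajb2*, *Dnajb4* and *Dnajb5* had values between -0.11 and 0.09 and did not pass.

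*Hspb1* was higher with corticosterone at the fifth hour on 7 of 8 arrays (0.26 ± 0.08, adjusted p = 0.0153), with 0.04 ± 0.08 (adjusted p = 0.774) at the first and 0.16 ± 0.08 (adjusted p = 0.194) at the ninth hour. Within slides 1, 2 and 3 the fifth-hour value was 0.01, 0.55 and 0.14, and it failed without slide 2 (adjusted p = 0.571, range over 17 alternatives 0.00807 to 0.571). The change of the corticosterone effect from the first to the fifth hour was 0.22 ± 0.12 (adjusted p = 1), so a difference between hours was not shown. *Cryab* in control animals was between 3900 and 5000 (median 4360), between 3550 and 4750 (median 4370) and between 3300 and 4520 (median 3770), and in corticosterone-treated animals between 3440 and 4390 (median 4100), between 3390 and 4530 (median 3870) and between 3240 and 4010 (median 3490). It was lower with corticosterone at the first hour on 8 of 8 arrays (-0.14 ± 0.06, adjusted p = 0.0491), gave -0.12 at the fifth and the ninth hour, and failed at the first hour in 9 of 17 alternatives, among them slide as a block (adjusted p = 0.0618) and without the fifth-hour array of replicate 7 (adjusted p = 0.0549, range 0.0104 to 0.252). *Cryab* passed at the fifth and the ninth hour in the authors' table (adjusted p = 0.0291 and 0.0275) and with limma on log ratios (adjusted p = 0.0302 and 0.0326). *Hspb3*, *Hspb6* and *Hspb8* did not pass in the fit, with *Hspb8* at 0.30 ± 0.11 (8 of 8 arrays, adjusted p = 0.0541) at the first and -0.23 ± 0.11 (adjusted p = 0.14) at the ninth hour. *Hspb8* passed at the first hour with slide as a block (adjusted p = 0.0488), with Aquantile normalization, with median centring, without dim probes and in the authors' table (adjusted p down to 0.0244).

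*Hsf1* was higher with corticosterone at the fifth hour on 7 of 8 arrays (0.18 ± 0.05, adjusted p = 0.00576), and gave 0.09 ± 0.05 (adjusted p = 0.168) at the first and 0.13 ± 0.05 (adjusted p = 0.0564) at the ninth hour. *Hsf1* passed at the ninth hour with Aquantile normalization (adjusted p = 0.0282), with limma on log ratios (adjusted p = 0.036) and in the authors' table (adjusted p = 0.0179). The animals of the treatments overlapped at each hour, and the fifth-hour call was lost without slide 1 and without slide 3 (adjusted p up to 0.205). *Hsf2* was between -0.03 and 0.08. *Ahsa1*, which stimulates the ATPase of Hsp90, was between 38900 and 45700 (median 42100), between 32600 and 42700 (median 40500) and between 33200 and 40100 (median 37000) in control animals, and between 34200 and 46800 (median 37300), between 33900 and 41300 (median 36700) and between 31500 and 39500 (median 34400) in corticosterone-treated animals. It was lower with corticosterone at the first hour on 7 of 8 arrays (-0.16 ± 0.05, adjusted p = 0.0187), a call lost with Aquantile normalization, in the authors' table and without any single slide (adjusted p up to 0.12). *Bag3*, *Hspbp1* and *St13* had values between -0.19 and 0.15 and did not pass in the fit. At the fifth hour *St13* was called lower with outlier spots kept (adjusted p = 0.0433), without dim probes (adjusted p = 0.0496) and with limma on log ratios (adjusted p = 0.047), and *Bag3* without slide 1 (-0.26, adjusted p = 0.0277) and with limma on log ratios (adjusted p = 0.046). *Chordc1* gave 0.19 ± 0.10 (adjusted p = 0.175) at the fifth hour, and 0.21 (adjusted p = 0.0033) without the array of replicate 7. With all arrays kept, *Chordc1* passed there with processed signals (adjusted p = 0.0022), with limma on log ratios (adjusted p = 0.00599) and in the authors' table (adjusted p = 0.00273).

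*Rbm3* was lower with corticosterone at the ninth hour on 7 of 8 arrays (-0.25 ± 0.09, a change of -15.9%, adjusted p = 0.0335), after -0.06 ± 0.09 (adjusted p = 0.678) at the first and -0.22 ± 0.09 (adjusted p = 0.0594) at the fifth hour. At the fifth hour *Rbm3* passed with slide as a block (-0.22, adjusted p = 0.0414) and without slide 1 (-0.32, adjusted p = 0.02). At the ninth hour corticosterone-treated animals ran from 6390 to 9610 and control animals from 7660 to 9930. The value was -0.24, -0.27 and -0.25 within the slides, and the call was lost without any single slide (adjusted p up to 0.933 over 18 alternatives, that value from the second brightest probe). *Cirbp* gave 0.01 ± 0.08 (adjusted p = 0.922), -0.17 ± 0.08 (adjusted p = 0.0867) and -0.03 ± 0.08 (adjusted p = 0.852) at the 3 hours, and at the fifth passed with processed signals (-0.20, adjusted p = 0.0445) and without slide 1 (-0.26, adjusted p = 0.0377).

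No change of the corticosterone effect between hours passed for the 36 members. By the ninth hour the count was 0 in limma (4 at an unadjusted p under 0.05), against 0.829% of all probes, from the first to the fifth 0 (1 unadjusted), against 0.0389%, and from the fifth to the ninth 0 (1 unadjusted), against 0.0813%. By the ninth hour *Hspa8* gave 0.05 ± 0.08 (adjusted p = 1), *Hsph1* 0.06 ± 0.06 (adjusted p = 0.967), *Hsp90aa1* 0.07 ± 0.11 (adjusted p = 1), *Hsf1* 0.04 ± 0.07 (adjusted p = 1) and *Cirbp* -0.04 ± 0.11 (adjusted p = 1). A p above the threshold does not show that the effect stayed the same. The shares of all probes are at an adjusted p under 0.05, so the unadjusted counts cannot be set against them. For comparison, all 6 glucocorticoid response genes (*Fkbp5*, *Sgk1*, *Tsc22d3*, *Per1*, *Ddit4* and *Nfkbia*) were higher with corticosterone at the first hour, and in all 6 the effect fell by the ninth, with *Tsc22d3* at -1.51 ± 0.14 (adjusted p = 1.58e-10).

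The members with several probes differed between them. Of 180 values of the 30 other probes over the 6 main comparisons, 28 differed from the brightest probe in their call and 3 of a called value in their sign. The probe of *Rbm3* with a mean intensity of 65.9, well above background on 22 of 24 Cy3 arrays, fell where the brightest rose: its medians at the first, the fifth and the ninth hour were 97.4, 56.6 and 54.5 in control and 97.6, 55.9 and 51.6 in corticosterone-treated animals. The ninth over first hour log2 fold change was -0.78 ± 0.16 in control animals (adjusted p = 0.00282, 4 of 8 ninth-hour animals below every first-hour animal), and the change in corticosterone-treated animals was -49.8% (adjusted p = 9.03e-06, 7 of 8 below). The probes of *Rbm3* at 2110 and 820 rose like the brightest, with medians of 1680 and 2600, and of 670 and 1040, in control animals of the first and the ninth hour. These 2 probes gave 0.02 ± 0.11 (adjusted p = 0.933) and -0.08 ± 0.10 (adjusted p = 0.624) for corticosterone at the ninth hour, where the brightest gave -0.25. The probe of *Cirbp* at 232 rose from a median of 199 to 303 in control and from 202 to 289 in corticosterone-treated animals, whereas that at 130 gave 0.08 ± 0.16 (adjusted p = 0.93) and 0.03 ± 0.16 (adjusted p = 0.973).

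**Figure D4:**
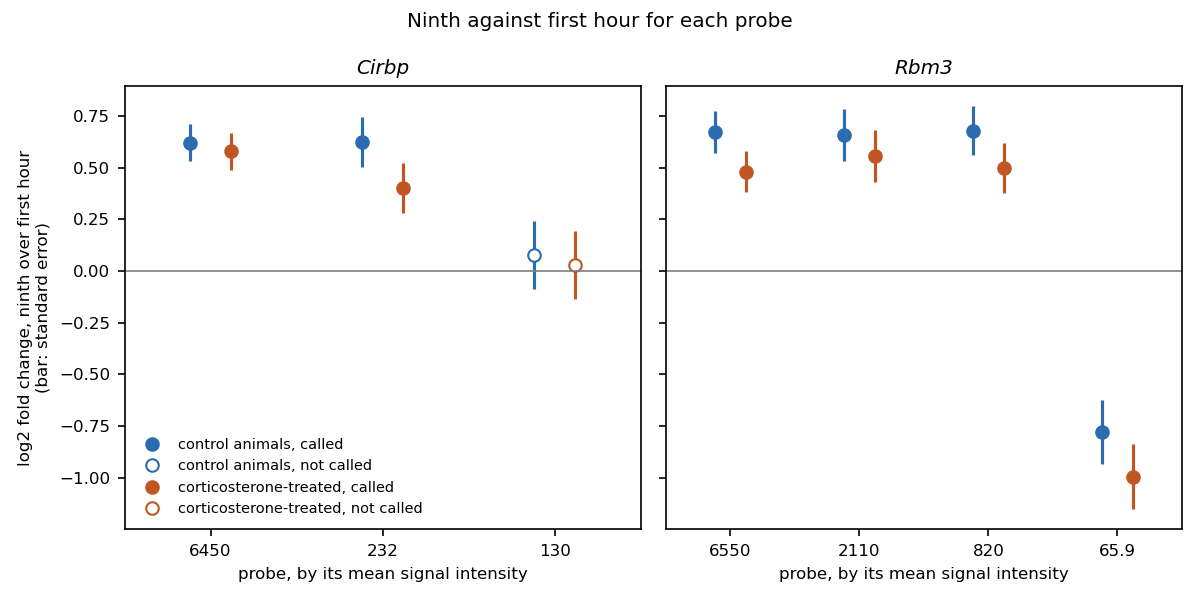
log2 fold change of the ninth over the first hour for each probe of *Cirbp* and *Rbm3*, ordered by mean signal intensity, in control (blue) and corticosterone-treated animals (orange), with bars of 1 standard error and filled points at an adjusted p under 0.05. The *Rbm3* probe at 65.9 lies below 0 in both, and the brighter *Rbm3* probes lie above 0.

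Among the chaperones, the second probe of *Hspa4*, at 2880, was called lower with corticosterone at the 3 hours (-0.22, -0.19 and -0.21), and the probe of *Hspa4l* at 407 at the first and the fifth hour (-0.22, adjusted p = 0.0276, and -0.20, adjusted p = 0.0441), where the brightest probes did not pass. That probe gave -0.13 ± 0.08 (adjusted p = 0.238) and the probe of *Hspa4l* at 1200 gave 0.10 ± 0.05 (adjusted p = 0.142) at the ninth hour. For *Dnajb4* a probe at 267 was lower at the fifth hour (-0.27 ± 0.10, adjusted p = 0.0368), and for *Dnajb5* a probe at 256 was higher at the first (0.28 ± 0.08, adjusted p = 0.011). The *Dnajb5* probes at 256 and 123 gave -0.07 ± 0.10 (adjusted p = 0.822) and 0.06 ± 0.10 (adjusted p = 0.85) for the ninth over first hour comparison of corticosterone-treated animals. The *Dnaja1* probe at 196 gave 0.02 ± 0.08 (adjusted p = 0.893) at the fifth hour. Of the *Dnajb6* probes, that at 3380 gave 0.10 ± 0.04 (adjusted p = 0.0643) at the first hour and was called higher at the fifth (0.13) and the ninth (0.19). The *Dnajb6* probe at 1260 gave -0.15, -0.27 and -0.23 at the 3 hours, called at the fifth (adjusted p = 0.05 after rounding, under the threshold before it), opposite to the brightest. Those at 802 and 109 gave values between -0.18 and -0.09 and did not pass.

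Within a treatment, animals with more *Cirbp* at an hour also had more *Rbm3*. After removal of the hour means, Pearson's r over 24 control animals was 0.71 (permutation p = 0.00042, adjusted p = 0.005 over 12 pairs) and Spearman's rho 0.66 (permutation p = 0.0012, adjusted p = 0.014). It was 0.61 without the 2 animals farthest in *Cirbp*, 0.78, 0.75 and 0.55 within the hours and 0.89, 0.71 and 0.66 within the slides. Over 24 corticosterone-treated animals r was 0.59 (permutation p = 0.0053, adjusted p = 0.032) and rho 0.61 (permutation p = 0.0036, adjusted p = 0.035). There r was 0.61 without the 2 farthest animals, 0.34, 0.78 and 0.53 within the hours and 0.71, 0.68 and 0.29 within the slides. Without the fifth-hour array of replicate 7, r with *Rbm3* was 0.66 in control animals (permutation p = 0.0045, adjusted p = 0.054; 0.34 within the fifth hour) and 0.52 in corticosterone-treated animals (permutation p = 0.016, adjusted p = 0.044; -0.05 within slide 3). Without the first-hour array of replicate 8 it was 0.68 (adjusted p = 0.019) and 0.67 (adjusted p = 0.012). Over all 24 animals with slide means also removed it was 0.76 (adjusted p = 0.0017) and 0.48 (adjusted p = 0.041). All pairs were tested two-sided by permutation within hours. Control and corticosterone-treated animals were read on the same 24 arrays, so the correlations of the treatments are not independent of each other. In single dyes, differences between arrays cannot be told apart from differences between animals.

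Of the chaperones and cochaperones paired with *Cirbp*, *Chordc1* passed in control animals and *Hspb1* and *Hsp90aa1* in corticosterone-treated animals, each with a negative r. *Chordc1* had r of -0.50 (permutation p = 0.0073, adjusted p = 0.044) and rho of -0.54 (permutation p = 0.0092, adjusted p = 0.055) in control animals, -0.57 without the 2 farthest animals, -0.57, -0.86 and -0.12 within the hours and -0.69, -0.14 and -0.77 within the slides. Without the fifth-hour array of replicate 7 it was -0.45 (permutation p = 0.11, adjusted p = 0.33) and no longer passed, without the first-hour array of replicate 8 it was -0.50 (permutation p = 0.011, adjusted p = 0.069) and did not pass either, and without the former 0 of the 12 pairs passed in control animals in place of 2. *Hspb1* had r of -0.69 (permutation p = 0.0017, adjusted p = 0.02) and rho of -0.59 (permutation p = 0.0074, adjusted p = 0.035) in corticosterone-treated animals, -0.55 without the 2 farthest animals, -0.87, -0.71 and 0.22 within the hours, and -0.73, -0.72 and -0.55 within the slides. *Hsp90aa1* had r of -0.61 (permutation p = 0.0094, adjusted p = 0.038) and rho of -0.53 (permutation p = 0.0087, adjusted p = 0.035), -0.60 without the 2 farthest, -0.65, -0.67 and -0.22 within the hours and 0.32, -0.52 and -0.78 within the slides. At the ninth hour the relation of *Hspb1* had the opposite sign, and on slide 1 that of *Hsp90aa1*. Without the first-hour array of replicate 8 *Hspb1* gave -0.64 (adjusted p = 0.02) and *Hsp90aa1* -0.60 (adjusted p = 0.012), and on slide 3 *Hspb1* then gave 0.08. Over all 24 animals with slide means also removed they gave -0.65 (adjusted p = 0.019) and -0.57 (adjusted p = 0.041). Without the fifth-hour array of replicate 7 they gave -0.80 (adjusted p = 0.0013) and -0.54 (adjusted p = 0.044). *Dnajb1* (-0.62, adjusted p = 0.037) and *Ahsa1* (-0.53, adjusted p = 0.044) passed without that array too, but r was -0.28 and -0.17 once the 2 farthest animals were also left out. With all 24 animals they passed only with slide means removed (-0.57 and -0.56, adjusted p = 0.041 for each), and without the 2 farthest r was then -0.15 and -0.19. In all, r was negative in 8 of 12 pairs in control and in 10 of 12 in corticosterone-treated animals. The counts of negative and of passing pairs have no share over all genes beside them and describe these 12 pairs alone.

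**Figure D5:**
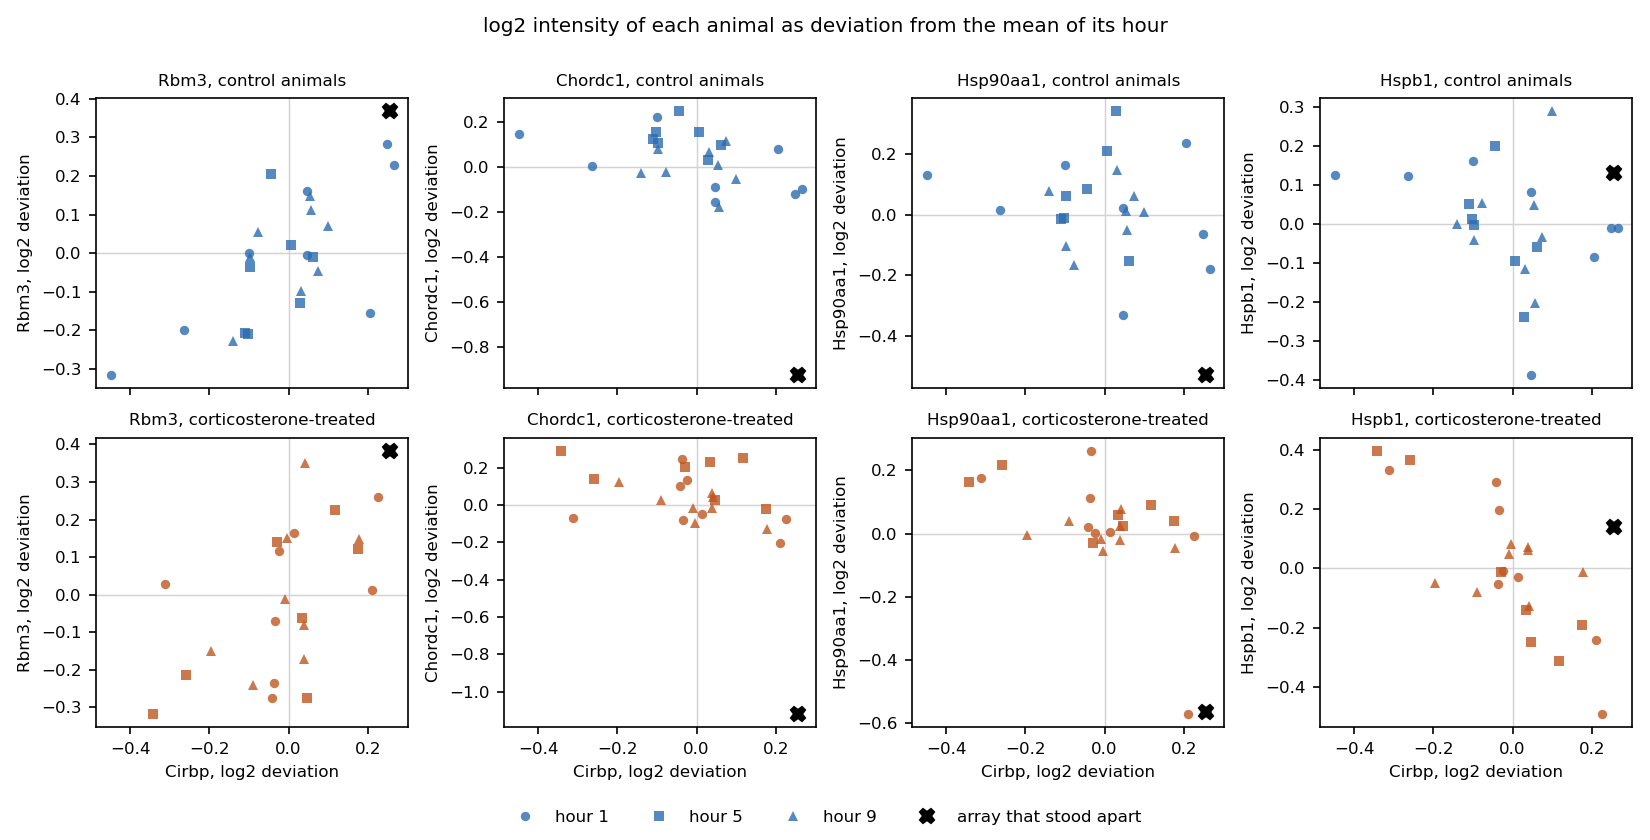
log2 signal intensity of *Cirbp* against that of 4 other members, each as the deviation from the mean of its hour, over 24 control (blue) and 24 corticosterone-treated animals (orange), with the fifth-hour array of replicate 7 as a black cross. *Rbm3* goes up with *Cirbp* (r of 0.71 and 0.59), and the cross stands far below the others for *Chordc1*.

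Other genes of the pathway were counted by lists, beside shares of all probes of 8.79% higher and 8.74% lower at the first, 8.64 and 9.51% at the fifth and 6.97 and 6.93% at the ninth hour. Of 25 further cytosolic chaperones and cochaperones, 3 were higher and 5 lower with corticosterone at the first, 5 and 5 at the fifth, and 3 and 3 at the ninth hour, among them the Hsp90 partners *Cdc37* (-0.17, -0.16 and -0.16) and *Ptges3* (-0.20, -0.19 and -0.17) and the exchange factor *Bag2* (0.19, 0.20 and 0.16). *Hsbp1*, which binds heat shock factor 1, gave -0.21, -0.21 and -0.19. Of 8 cytosolic chaperonin subunits, 1 and 1, 2 and 1, and 2 and 0 were higher and lower, with *Cct8* at 0.22, 0.28 and 0.26 (adjusted p = 3.13e-05, 6.98e-07 and 7.03e-06). Of 15 further heat-inducible genes, 2 and 1, 3 and 0, and 3 and 1 were higher and lower, with the autophagy receptor *Sqstm1* at 0.20, 0.18 and 0.22. Of 12 cold shock domain and cold-linked genes, 3 and 1, 2 and 1, and 2 and 1 were higher and lower, with *Rtn3* at 0.27, 0.28 and 0.27 and *Csdc2* at 0.43, 0.37 and 0.32.

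For the ninth over first hour the share of all probes was 0.238% higher and 0.277% lower in control and 1.99 and 1.94% in corticosterone-treated animals. These shares are at an adjusted p under 0.05, and the unadjusted counts have no share beside them. In control animals 0 of the 25 further chaperones (3 at an unadjusted p under 0.05 in limma), 0 of the 8 chaperonin subunits (0 unadjusted) and 0 of the 12 cold-linked genes (2 unadjusted) passed, and of the heat-inducible genes 1 rose, the dim *Hspb7* (0.40 ± 0.08, adjusted p = 0.024). In corticosterone-treated animals *Bag5*, which acts on Hsp70, fell (-0.16 ± 0.05, adjusted p = 0.0452), and so did *Clk1* (-0.37 ± 0.11, adjusted p = 0.0291), a splicing kinase with temperature-dependent activity. The median log2 fold change of the 4 lists was -0.02, -0.02, 0.03 and 0.05 in control animals, against -0.00 over all probes. Of the 6 clock output genes, with a median of 0.41 in control animals (0.17 within slide 2), *Tef* fell (-0.20 ± 0.05, adjusted p = 0.0367) and *Dbp* (0.84 ± 0.09, adjusted p = 7.44e-08), *Nr1d1* (1.00 ± 0.13, adjusted p = 7.31e-06) and *Ciart* (1.10 ± 0.18, adjusted p = 0.00011) rose there.

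The markers of cell types were read beside these results by list, with the same shares of all probes (8.79 and 8.74%, 8.64 and 9.51%, and 6.97 and 6.93%) as background. With corticosterone, higher and lower markers at the first, the fifth and the ninth hour numbered 0 and 0, 1 and 0, and 1 and 0 of 6 for pyramidal and granule neurons, 0 and 0, 3 and 0, and 2 and 0 of 5 for interneurons, and 2 and 1, 2 and 2, and 2 and 2 of 6 for astrocytes. They numbered 0 and 3, 0 and 2, and 0 and 1 of 5 for microglia and 1 and 2, 1 and 1, and 1 and 1 of 5 for endothelial and mural cells. None of 5 choroid plexus (0 unadjusted at each hour in limma) and of 3 erythrocyte markers (0, 3 and 0 unadjusted) passed. The unadjusted counts have no share of all probes beside them. By the ninth hour, *Cldn5* of the endothelial markers fell in control animals (-0.35 ± 0.08, adjusted p = 0.0175) and no other marker of these lists passed there, against 0.238% of all probes higher and 0.277% lower. In corticosterone-treated animals *Neurod6* (0.23), *Cx3cr1* (0.38), *Aif1* (0.48) and *Cldn5* (0.26) rose, against 1.99% higher and 1.94% lower.

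The summed signal intensity of the neuronal markers, led by *Camk2a*, had medians of 109000, 118000 and 105000 in control and 110000, 113000 and 110000 in corticosterone-treated animals at the 3 hours. Medians for interneurons, led by *Sst*, were 79800, 78100 and 80900, and 85300, 88500 and 89700, and for astrocytes, led by *Aldoc*, 90700, 96700 and 92300, and 106000, 102000 and 101000. Those for microglia, led by *Csf1r*, were 14500, 15000 and 15800, and 13500, 14100 and 15000. Endothelial and mural markers, led by *Flt1*, had 10000, 10200 and 9230, and 7610, 8870 and 8740, and choroid plexus markers, led by *Kl*, 1360, 1410 and 1100, and 1240, 1340 and 1140. Erythrocyte markers, led by *Hba-a1*, had 25100, 23600 and 24500, and 27100, 29900 and 25500. Of these markers only *Folr1* of the choroid plexus lay near background (mean intensity 40.7, well above it on 15 of 24 Cy3 arrays). The part of cell types in the results for *Cirbp*, *Rbm3*, *Hspa1a*, *Dnaja1* and the other members was not tested.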

How the data were processed

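Gene expression was measured in whole hippocampi of 48 mice on 24 two-color arrays on 3 slides, with 2, 2 and 4 arrays of the first, the fifth and the ninth hour on slide 1 and 3, 3 and 2 on each of the other slides. The deposited scanner files give, per spot, the median pixel intensity and that of its local background in both dyes without normalization, read by the authors with Agilent Feature Extraction 10.7.3.1. The authors also deposited log2 ratios (Cy5 over Cy3) of each probe on each array in a table. Direction and scale of that table were checked on the files: the column medians lay between 0.0024 and 0.0089, and r with the log ratios computed here lay between 0.988 and 0.997. Median spot intensity per array ran from 90 to 107 in Cy3 and from 136 to 185 in Cy5. Below a mean of 50 lay 24753 of 56605 probes, whose ratios rest on differences close to background.

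Intensities were analysed in R 4.3.3 with limma 3.58.1, statmod 1.5.0, data.table (version 1.17.8) and jsonlite 2.0.0. The normexp method corrected for background (offset 50 where p values were taken, offset 0 where log2 fold changes and standard errors were), followed by loess normalization within and quantile normalization between arrays. The 3671 control spots were left out, spots marked as outliers by the scanner software were set to missing, and 77 probes, 1 of them a member's but not its brightest, were therefore fitted on fewer arrays. The separate channel test of limma was fitted once over 48 channels with 6 groups (treatment by hour) and a common intraspot correlation of 0.286 (prior degrees of freedom 4.94). It gave 12 comparisons, 6 of them main: corticosterone against control at each hour, the ninth against the first hour in each treatment, and the change of the corticosterone effect between these hours. All p values are two-sided and adjusted by Benjamini-Hochberg over all 56605 probes, and called means an adjusted p under 0.05. Values after ± are standard errors of the fit, and the direction is counted over 8 arrays for the treatments and over 8 later animals against the earlier median for the hours.

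Probes were matched to genes by the accessions printed in the scanner files. Members were read from the fit of all probes, and the members and lists were chosen with earlier results of these data known. All 36 members are named. Intensities and tests are given for members called in a main comparison and for *Hspa1a*, *Hspa1b*, *Hspa8*, *Hsph1*, *Hsp90aa1*, *Dnajb1*, *Hsf1*, *Cirbp* and *Rbm3* whether called or not. Other probes are named where their call or sign differs, and of other lists at most 6 called genes with the smallest adjusted p. *Hbb-bs* of the erythrocyte markers was not matched, and a marker list that needs a withheld item is not reported. Correlations used log2 intensity without offset, hour means removed, and 1e+05 permutations within hours. The code was first tested on simulated data holding changes of known size.

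Alternatives were an offset of 0 for p values, no background correction, Aquantile normalization, median centring in place of loess, the scanner's processed signals, a filter on mean intensity (50), a filter on detection (8 arrays), slide as a block, a variance prior with an intensity trend, the second brightest probe, each slide left out, outlier spots kept, limma on log ratios, the authors' table, and the channel of a treatment alone. For the correlation in control animals an offset of 50 and removal of slide means were tried. Leaving out the fifth-hour array of replicate 7 and the first-hour array of replicate 8, and all alternatives of the correlation in corticosterone-treated animals, were chosen after seeing the data.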

Additional observations from a re-analysis of the deposited data

Results flagged for a closer look

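For each member, treatment and hour, the highest or the lowest of 8 animals was compared with its nearest neighbour. An animal stood far from its group in 25 of 216 groups, where chance gives about 1 in 20. The fifth-hour array of replicate 7 accounts for 10 of these, 8 low and 2 high. There the control and the corticosterone-treated animal read 994 and 989 for *Chordc1* (medians 2040 and 2420), 933 and 994 for *Dnajb4* (3090 and 3350) and 6780 and 7060 for *Hspd1* (12700 and 13600). *Hsp90aa1* read 27100 in its corticosterone-treated animal (median 41400) and *Hsp90ab1* 53500 in its control animal (70300), while *Dnajb6* at 15000 in the corticosterone-treated animal (13500) and *Cirbp* at 7950 in the control animal (6570) were high.

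The corticosterone-treated animal of the first-hour array of replicate 8 was apart for 5 members, high for *Hspa13* (2590, median 2050), *Hspa4l* (6950, 5910), *Dnajb1* (13800, 8710) and *Ahsa1* (46800, 37300) and low for *Hspbp1* (1480, 2050). On the first-hour array of replicate 6, *Hsp90aa1* was low at 27200 in the corticosterone-treated animal (median 40800) and *Hspe1* high at 19600 in the control animal (13100). The fifth-hour control animal of replicate 3 was high for *Dnajb5* (7960, median 6370) and low for *Ahsa1* (32600, 40500). On the ninth-hour array of replicate 5, *Hspe1* was high in both dyes, at 16000 in the control (median 11900) and 15400 in the corticosterone-treated animal (11800).

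Single values stood apart for *Hspb1* (2380 in the first-hour control animal of replicate 1, median 3190), *Bag3* (1250 in the first-hour control animal of replicate 7, median 1530), *Hspa13* (1700 in the ninth-hour corticosterone-treated animal of replicate 2, median 1940) and *Dnaja2* (8360 in the ninth-hour corticosterone-treated animal of replicate 3, median 6610). What set these animals apart was not tested.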

How the results depend on the processing

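Over 21 alternatives, 17 or 18 for each count of called members, 3596 results came out alike, 80 weaker, 70 stronger and 4 with the sign turned. Alike means called in both with the same sign, or called in neither whatever the sign, so members never called are among the 3596. Weaker and stronger mean a call lost or gained with the same sign. A turned sign was counted only where the result was called with or without the alternative. Leaving out a slide leaves fewer animals: at the first hour 4, 4 and 3 members were called without slides 1, 2 and 3 (7 with all), at the ninth 0, 1 and 3 (5 with all), and for the ninth over first hour of control animals 1, 3 and 3 (5 with all). Without slide 2, 4 were called at the fifth hour (8 with all) and 3 for the ninth over first hour of corticosterone-treated animals (7 with all). The split of higher and lower members at the fifth hour (7 and 1) became 4 and 4 without slide 1, 3 and 1 without slide 2 and 8 and 0 without slide 3. With limma on log ratios 13 were called at the fifth hour; the cause was not tested. Without the first-hour array of replicate 8, 1 change of the corticosterone effect was called in place of 0, and without the fifth-hour array of replicate 7, 0 correlations of *Cirbp* in control animals in place of 2 (1 without the former array), all with fewer animals and with causes not tested. With the second brightest probe the sign turned for *Dnajb4* at the fifth hour (-0.27), *Rbm3* at the ninth hour (0.0183) and *Dnaja1* for the ninth over first hour of control (0.0110) and corticosterone-treated animals (0.0449); the cause was not tested.

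Scaling moved the split of higher and lower members at the first hour (4 and 3) to 6 and 2 with Aquantile normalization, to 5 and 2 with median centring and in the authors' table and to 5 and 4 with processed signals, at the fifth hour (7 and 1) to 8 and 3 with processed signals and 8 and 2 in the authors' table, and at the ninth (4 and 1) to 4 and 2 in the authors' table and 5 and 2 with Aquantile normalization and processed signals. *Cirbp*, *Rbm3* and *St13* for the ninth over first hour of corticosterone-treated animals, and *Hspa1a* and *Hspa2* at the first hour, passed under every alternative run. *Hspb3* and *Hspb8* are dim, which limits what their ratios can show.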
